A study of Mus musculus with 15 samples.

Results

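5-hydroxymethylcytosine (5hmC) was compared between the nucleus accumbens of mice given cocaine and mice given saline, over the regions of the authors' deposited 5hmC table that lie on chromosomes 1 to 19. These were 11698 of the 11748 regions in the table; the other 50 lie on chromosome X. Each region carries a normalised read count from 3 cocaine and 3 saline libraries, out of 15 libraries in the series. The cocaine group received 7 daily intraperitoneal injections of 20 mg/kg, the comparison group is labelled saline, and all mice were C57BL/6. The protocol field of the saline libraries repeats the same cocaine schedule of 7 daily injections and gives none for saline itself. The labels used here give no age, sex or interval after the last injection, and no statement that each library stands for its own animal. A further 5hmC library, labelled cerebellum input in one field and nucleus accumbens in another, was not part of the comparison. All positions are in mm9.

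5hmC arises when Tet enzymes oxidise 5-methylcytosine, the methylated base of CpG sites. It is abundant in neurons, where it is found in gene bodies and at enhancers, and it can be an intermediate of demethylation as well as a stable mark. The nucleus accumbens, a part of the ventral striatum made up mainly of medium spiny neurons, receives dopamine input that cocaine increases by blocking the dopamine transporter. In capture sequencing, DNA fragments carrying 5hmC are enriched and read, so a count reflects the number of captured fragments at a site. In tissue DNA, a change in 5hmC per cell and a change in the share of cells that carry it cannot be told apart. The deposited tables pair regions with no gene names, and no gene annotation in mm9 was used here, so regions are given by position only and the labelled tissue was not checked against marker genes.

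Of the 11698 regions, 6838 (58.5%) had more 5hmC after cocaine and 4860 (41.5%) had less. The regions with more had a median group mean of 9.01 normalised counts after cocaine, against 2.26 after saline. Those with less showed a near mirror image, with 2.15 normalised counts in cocaine against 8.99 in the saline group. In the authors' deposited table the middle 50% of the regions with more 5hmC had a log2 fold change between 1.55 and 2.35, and the middle 50% of those with less had one between -2.48 and -1.71, leaving out regions with a group at 0. On log2(value + 1), used below because it stays finite at 0, the medians were 1.61 and -1.67.

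The 6 libraries can be set side by side. At regions higher after cocaine, the median value was 8.65, 9.88 and 8.99 normalised counts in cocaine libraries 1 to 3, and 2.69, 2.06 and 1.97 in saline libraries 1 to 3. At regions lower after cocaine it was 1.92, 2.47 and 1.80 in cocaine and 8.96, 9.26 and 8.88 in saline. Every library thus had the direction of its group, and the medians of 2 libraries of a group lay closer together than those of the groups. Library numbers give only the position of a value in the table. Over all regions the 3 cocaine libraries summed to 83014 to 86519 normalised counts and the 3 saline libraries to 69948 to 71608, with 83.4% to 84.3% of the cocaine sum and 30.1% to 31.1% of the saline sum in the regions higher after cocaine.

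**Figure D1:**
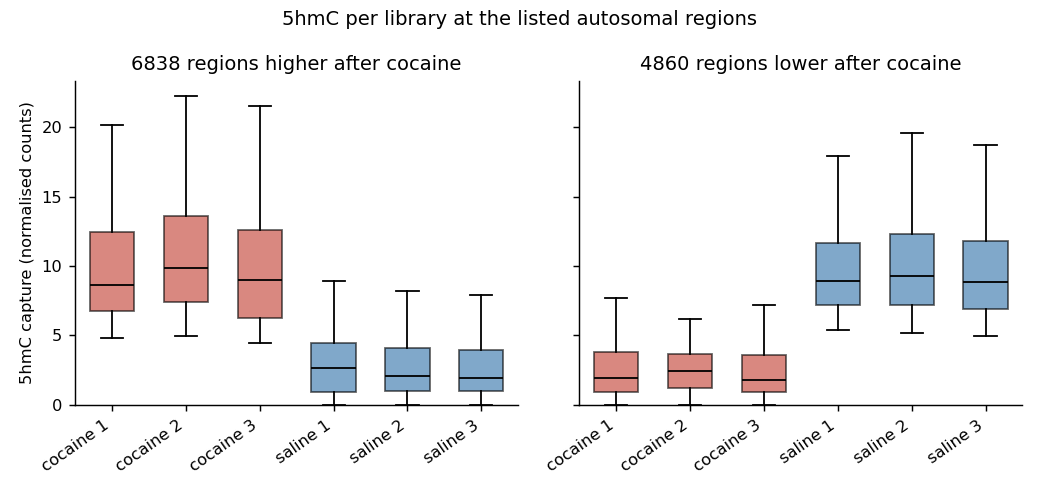
Normalised 5hmC counts per library over the 6838 regions higher (left) and the 4860 regions lower after cocaine (right); boxes span the middle 50% of regions, lines are medians, and whiskers reach 1.5 times the box height, with values beyond them not drawn. At the higher regions the medians lie at 8.65 to 9.88 in cocaine and 1.97 to 2.69 in saline, and at the lower regions at 1.80 to 2.47 and 8.88 to 9.26.

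These differences describe how the list was made and are no test of cocaine, because every listed region had already passed the caller for a difference between the same 6 libraries. Limma called all 11698 of the 11698 regions at an adjusted p of 0.05, and 100% of the whole table. After median-of-ratios scaling, which centres the list itself, limma called 3625 higher and 4860 lower, so that 42.7% of the calls were higher against 58.5% without it. The median limma log2 fold change over the 11698 regions moved from 1.26 to 0.47 with that scaling. Cocaine and saline values were fully separate in 11689 of the 11698 regions, against 99.9% of the whole table. Unlisted sites, and how many were tested, were not analysed here.

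Counts at single regions were small. A read was worth 0.899 to 1.23 normalised counts in the cocaine libraries and 0.896 to 1.03 in the saline libraries, and a region held a median of 5 to 7 reads per library. Over the 6 libraries together, a region higher after cocaine held a median of 34 reads, with a lowest total of 14 and a highest of 185. Each window p-value in the authors' deposited table was below 0.001, and 1735 regions (14.8%) had one below 1e-04. The authors' deposited table gave adjusted p-values with a median of 0.141 and a maximum of 0.149, and 4 regions lay below 0.05 (0.0340% of the whole table), 2 higher and 2 lower after cocaine. Just inside the window threshold, chr13:30196581-30196780 held 6.73, 8.64 and 4.49 normalised counts in cocaine and 1.79, 1.03 and 0.99 in saline. Regions outside it were not analysed here.

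The 4 regions below an adjusted p of 0.05 in the authors' deposited table were 340, 380, 440 and 440 bp long, against 200 bp in most regions. On chromosome 17, chr17:31975601-31976040 held 28.82, 33.34 and 26.06 normalised counts in the 3 cocaine libraries and 8.07, 7.21 and 11.84 in the 3 saline libraries. Limma put the log2 fold change at 1.62 ± 0.235 (SE). Here and below, limma was fitted only to regions selected on the same libraries. Its SEs can therefore be too small and its fold changes too large, and both describe the list. All cocaine values at the chromosome 17 region lay at least 14.2 normalised counts above every saline value, the widest separation among regions higher after cocaine. On chromosome 11, chr11:89266621-89267000 held 17.29, 17.29 and 16.18 in cocaine and 3.59, 5.15 and 1.97 in saline (limma log2 fold change 2.03 ± 0.334, SE). The cocaine values there were nearly equal (SD 0.641 normalised counts), while saline spread more (SD 1.59).

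Both regions of this set that were lower after cocaine lay on chromosome 5, far apart. The first, chr5:20435401-20435840, held 4.80, 4.94 and 1.80 normalised counts in cocaine and 16.14, 18.53 and 21.71 in saline (limma log2 fold change -2.10 ± 0.333, SE). The second, chr5:147090821-147091160, held 2.88, 1.23 and 2.70 in cocaine and 17.03, 13.38 and 12.83 in saline (limma log2 fold change -2.27 ± 0.373, SE). In both, every cocaine library was below every saline library, by at least 11.2 and 9.95 normalised counts.

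The largest ratios among regions with a group mean of at least 10 normalised counts came from low values in the other group. Among regions higher after cocaine, chr11:64713861-64714220 held 13.45, 9.88 and 7.19 in cocaine and 2.69, 1.03 and 0.00 in saline. At chr7:25348521-25348780 the values were 9.61, 11.11 and 14.38 in cocaine and 2.69, 0.00 and 1.97 in saline. The limma log2 fold changes of these regions were 2.48 ± 0.476 and 2.50 ± 0.461 (SE). The groups were apart by 4.50 and 6.92 normalised counts, and regions with overlapping groups had been left out of this ranking.

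Other large ratios rested on uneven libraries. At chr6:135863161-135863380 cocaine library 1 held 23.06 normalised counts and cocaine libraries 2 and 3 held 6.17 and 4.49, against 1.79, 1.03 and 2.96 in saline. At chr17:64995601-64995880 cocaine library 2 held 17.29 and the others 4.80 and 8.99, against 1.79, 1.03 and 1.97 in saline. The SD of the cocaine values was 10.3 at the first and 6.36 at the second, around means of 11.2 and 10.4. The remaining region of the 5, chr15:74533681-74533980, was more even, with 9.61, 13.58 and 12.58 in cocaine and 1.79, 4.12 and 0.00 in saline.

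Regions lower after cocaine were ranked in the same way, with a group mean of at least 10 normalised counts and no overlap between groups. The largest ratio of group means (pseudocount 1) was at chr1:165116621-165116960, with 1.92, 0.00 and 1.80 normalised counts in cocaine and 10.76, 14.41 and 7.90 in saline. Next came chr2:33045241-33045460, with 1.92, 0.00 and 1.80 in cocaine and 7.17, 16.47 and 7.90 in saline, where saline library 2 stood apart. At chr7:80828201-80828440 all cocaine libraries held about 1 or 2 reads (0.96, 1.23 and 1.80) and saline held 13.45, 8.24 and 10.86. The other 2 of this set, on chromosomes 16 and 18, had limma log2 fold changes of -2.44 ± 0.465 and -2.78 ± 0.527 (SE). On chromosome 18 a single cocaine library held 4.49 normalised counts and the other two 0.00.

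**Figure D2:**
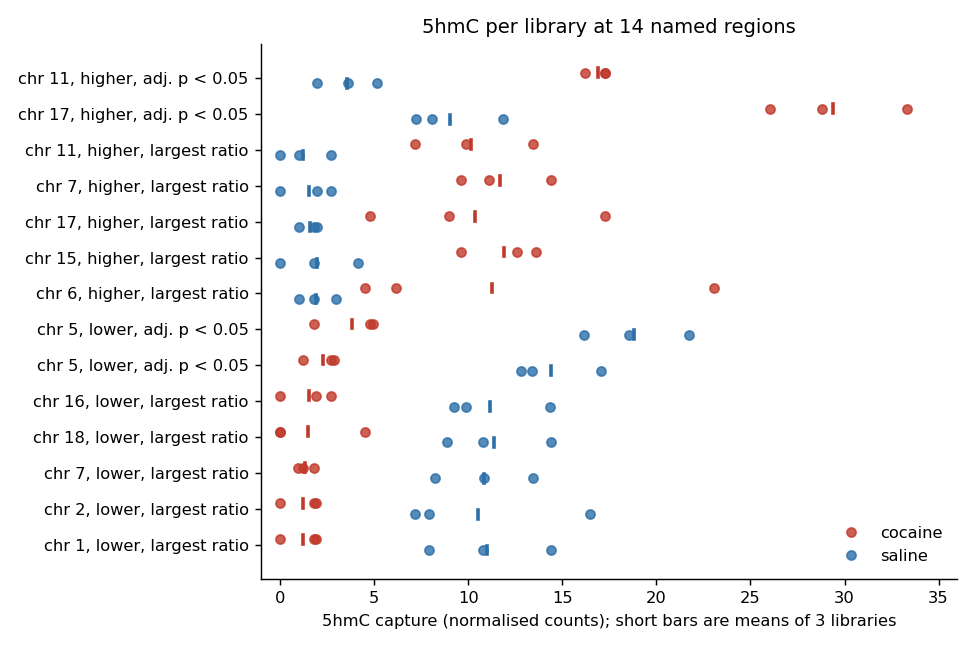
Normalised 5hmC counts of the 3 cocaine and 3 saline libraries at the 4 regions with a deposited adjusted p below 0.05 and the 10 regions with the largest ratio (5 in each direction) among those with a group mean of at least 10; points are libraries and short bars are group means. The 10 regions were picked among those whose groups do not overlap, and the groups of the 4 do not overlap either. The widest spread within a group is at the chromosome 6 region, where cocaine runs from 4.49 to 23.06.

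The size of the difference fell as the level rose. In regions whose higher group held less than 6 normalised counts, the median log2 ratio (pseudocount 1) was 1.82 for those higher and -2.0 for those lower after cocaine. At 20 or more it was 1.01 and -1.06, on 463 regions. The other group held a median of 0.687 and 0.620 normalised counts in the lowest class and 10.8 and 10.3 in the highest. Among listed regions, the median of the plain ratio of group means was about 2.14-fold in the highest class and 7.53-fold in the lowest. Level and size both come from the values on which the regions were selected. At low counts only a large ratio can pass a p-value threshold, while at higher counts a smaller one can. The fall in size therefore describes the list and cannot show that weak 5hmC sites differed more than strong ones.

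Direction also varied with level. Of the 977 regions below 6 normalised counts, 76.6% had more 5hmC after cocaine (95% exact binomial interval 73.8% to 79.2%). The share was 52.2% of the 4243 regions between 8 and 12 (50.7% to 53.7%) and 66.7% of the 463 regions at 20 or more (62.2% to 71.0%). The smallest group mean that entered the list was 4.74 normalised counts for regions higher and 5.15 for regions lower after cocaine. The lowest value in cocaine libraries 1 to 3 was 4.80, 4.94 and 4.49 at regions higher after cocaine. In saline libraries 1 to 3 it was 5.38, 5.15 and 4.93 at regions lower after cocaine. A link of these minima to the shares was not tested. The binomial intervals cover counting error over regions and not the spread between libraries. Level and direction both come from the values on which the regions were selected, so the shares describe the list.

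**Figure D3:**
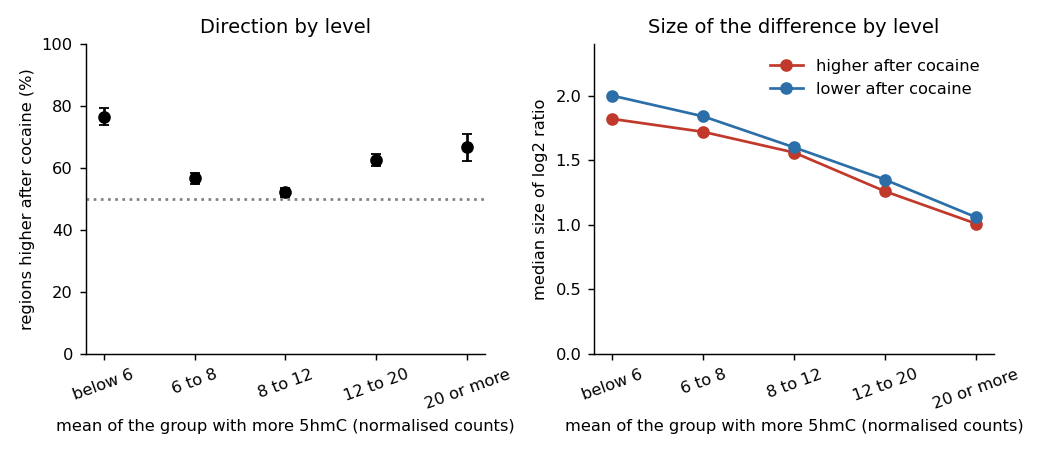
Share of regions higher after cocaine with 95% exact binomial intervals (left) and median size of the log2 ratio with a pseudocount of 1 (right), by the mean of the group with more 5hmC. The share is 76.6% in the lowest class, 52.2% between 8 and 12 normalised counts and 66.7% in the highest, while the median size falls from 1.82 and 2.0 to 1.01 and 1.06.

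The highest 5hmC levels in the list were at chr10:80616241-80616460, with 42.27, 37.04 and 37.74 normalised counts in cocaine and 16.14, 22.65 and 28.62 in saline. The limma log2 fold change was 0.80 ± 0.186 (SE). Similar levels were found at chr11:97397841-97398060 (mean 36.8 ± 3.0 with cocaine against 21.1 ± 4.34 with saline, SD, n = 3 each) and at chr5:124528401-124528600 (36.6 ± 1.94 and 21.8 ± 4.63). The saline libraries at these sites held more 5hmC than the cocaine libraries did at most regions of the list. Of the regions lower after cocaine, chr5:110531981-110532220 was highest, with 21.14, 11.11 and 17.07 in cocaine and 27.79, 39.12 and 34.54 in saline. It was followed by chr4:131386841-131387080 (17.7 ± 2.87 in cocaine and 32.6 ± 4.39 in saline) and chr14:69982341-69982540 (17.3 ± 3.78 and 31.2 ± 2.51).

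At the other end, 12 regions higher after cocaine had 0 in all saline libraries and 9 regions lower after cocaine had 0 in all cocaine libraries. Against a floor of 3 reads over the empty group, the former were 4.89- to 6.68-fold higher and the latter 5.00- to 7.23-fold lower after cocaine. Among the latter, chr10:63759901-63760100 held 5.38, 5.15 and 11.84 normalised counts in saline. The floor covers counting error only. These regions were picked from a selected list because a group was empty, so the folds describe the list and are no lower bound. A single library with 0 was more common: in regions higher after cocaine, 9.29% to 14.1% of regions were at 0 in a given saline library, and in regions lower after cocaine 9.79% to 18.9% in a given cocaine library, with the highest share in cocaine library 2.

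Libraries of the group with more 5hmC were more alike than counting alone gives. The variance of reads among the 3 libraries, divided by that of counting noise at equal level, averaged 0.557 in cocaine at regions higher after cocaine and 0.473 in saline at regions lower after cocaine. In the group with less 5hmC it averaged 0.935 and 0.965, near the value of 1 that counting noise alone has. The regions had been selected on these libraries, so the low ratios describe the list. A library that held more than 50% of its group's sum was found in 205 regions (3.0%) higher and 49 regions (1.01%) lower after cocaine. Cocaine library 2 was that library in 135 of the 205. It held 70079 reads in the listed regions, against 86631 and 92372 in cocaine libraries 1 and 3, and a link to depth was not tested.

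In 9 regions the groups overlapped although they were listed. The widest overlap was at chr5:121131041-121131240, where cocaine held 27.86, 13.58 and 36.85 normalised counts and saline 9.86, 15.44 and 9.87. At chr7:35988521-35988740, lower after cocaine, saline held 13.45, 31.91 and 39.48 and cocaine 10.57, 9.88 and 14.38. In both, a single library of each group lay within the range of the other group.

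The deposited ratios set each group mean over a background library, which the table does not name. The smallest background above 0 was 1.40 normalised counts, with a median of 2.83 at regions higher and 2.89 at regions lower after cocaine, and the background was 0 in 15.1% and 14.7% of regions. Where it was above 0, the authors' deposited table gave a median ratio of 3.31 with cocaine and 0.830 with saline at regions higher after cocaine. At regions lower after cocaine it was 0.730 in cocaine and 3.02 in saline. The group with less 5hmC was below background in 59.7% and 63.9% of these regions, and the group with more in 2.19% and 2.39%. The background rose in steps of about 1.43 normalised counts, so at a typical region it was only a few reads and the ratios are coarse.

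By library, the median ratio at regions higher after cocaine was 3.34 ± 0.159 with cocaine against 0.739 ± 0.0462 with saline (SD, n = 3 each). At regions lower after cocaine it was 0.711 ± 0.117 and 3.08 ± 0.0148. A ratio above 2 in the higher group with one of at most 1 in the other was found in 2128 regions higher (36.7% of those with background reads) and 1637 regions lower after cocaine (39.5%). Both groups stood more than 2 times above background in 943 (16.2%) and 560 (13.5%). In 226 regions both groups were below background, 127 higher and 99 lower after cocaine. An example with enrichment in both groups was chr10:80616241-80616460, where the ratio in the authors' deposited table was 13.8 for cocaine and 7.84 for saline.

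Most regions were as short as the caller's window. A length of 200 bp, the smallest present, was found in 56.2% of regions higher and 56.3% of regions lower after cocaine, and 300 bp or more in 8.01% and 6.73%. The longest, chr10:98588741-98589240, spanned 500 bp and held 13.45, 17.29 and 15.28 normalised counts in cocaine and 2.69, 3.09 and 4.93 in saline. Of the regions lower after cocaine, 440 bp was the longest, at chr5:20435401-20435840, given above, and at chr17:86933641-86934080, which held 4.80, 6.17 and 2.70 in cocaine and 17.03, 18.53 and 18.75 in saline. Level per length hardly varied, with a median in the higher group between 8.15 normalised counts per 200 bp, at a length of 300 bp, and 8.91, at 380 bp. In all, the regions covered 1530.1 kb with more and 1080.4 kb with less 5hmC.

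Regions of both directions were found on all 19 autosomes. The share higher after cocaine ran from 55.6% on chromosome 7 to 61.8% on chromosome 6, and the exact binomial interval of every autosome included 58.5%. Such intervals cover counting error over regions and not the spread between libraries, and the shares describe the selected list. Density varied more than direction, from 3.65 regions per Mb between the first and last region on chromosome 3 to 6.90 on chromosome 11. On chromosome X, which is not among the 11698, there were 0.325 regions per Mb, against 4.93 over the autosomes.

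Regions lay a median of 38940 bp from the nearest other region, and the 2 directions were interleaved. Within 10000 bp of another region lay 2167 regions (18.5%), 18.4% of those higher and 18.7% of those lower after cocaine. Of the 1161 neighbouring pairs within that distance, 408 were both higher, 214 both lower and 539 opposite. Pairs thus had the same direction in 53.6% (95% exact binomial interval 50.7% to 56.5%), and the shares of the directions alone give 51.4%. Some pairs share a region and so are not independent, and the interval does not cover the spread between libraries. Of 1006 groups of neighbouring regions, 328 were all higher, 173 all lower and 505 mixed.

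The group with the most regions held 6 of them on chromosome 15, between 74326181 and 74356860. The first 2 were lower after cocaine. At chr15:74326181-74326400 cocaine held 1.92, 0.00 and 3.59 normalised counts and saline 7.17, 7.21 and 9.87. At chr15:74329481-74329780 cocaine held 3.84, 0.00 and 5.39 and saline 10.76, 12.35 and 12.83. The next 4 were higher after cocaine, so that direction changed once along this stretch.

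In the third region, chr15:74335141-74335340, cocaine held 7.69, 4.94 and 5.39 normalised counts and saline 0.90, 1.03 and 1.97. The fourth, chr15:74344981-74345180, held 7.69, 6.17 and 4.49 in cocaine and 1.79, 2.06 and 0.00 in saline. The last 2 were the highest after cocaine, with means of 11.5 ± 4.23 and 12.6 ± 3.09 normalised counts, against 3.18 ± 1.26 and 3.52 ± 1.36 in saline (SD, n = 3 each). None of the 6 had groups that overlapped, which also held for 99.9% of the whole table. Their adjusted p in the authors' deposited table lay between 0.137 and 0.141.

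**Figure D4:**
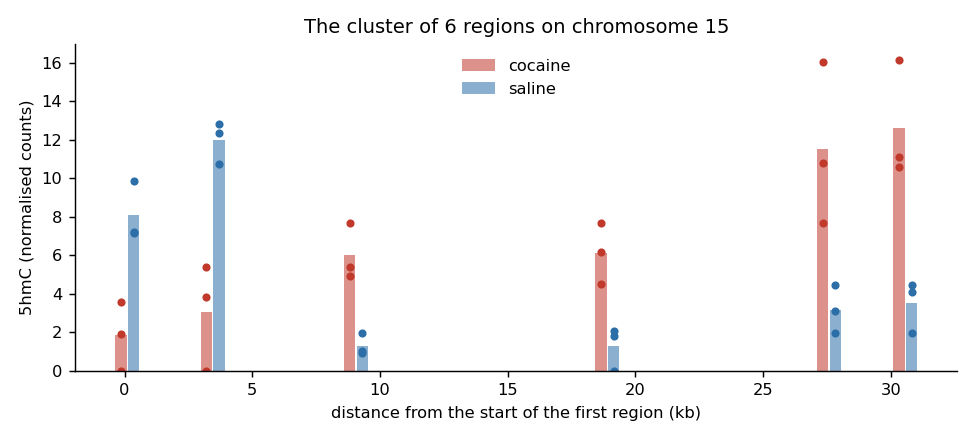
Normalised 5hmC counts at the 6 neighbouring regions on chromosome 15 against distance from the start of the first; bars are group means starting at 0 and points are the 3 libraries of each group. The first 2 regions have more 5hmC in saline and the next 4 more in cocaine, with cocaine means of 11.5 and 12.6 in the last 2.

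H3K27ac, histone H3 acetylated at lysine 27, marks active enhancers and promoters, and it was profiled in 3 cocaine and 3 saline libraries with other names than the 5hmC libraries. It is therefore a readout that the 5hmC list did not use, although the H3K27ac table was itself selected for a cocaine difference. At least 1 bp of an H3K27ac region was shared by 618 regions with more 5hmC (9.04%, 95% exact binomial interval 8.37% to 9.74%) and by 432 with less (8.89%, 8.10% to 9.72%). The median distance to the nearest H3K27ac region was 14690 bp and 14220 bp. In the 1135 overlapping pairs, the centre of the 5hmC region lay between 25% and 75% of the length of the H3K27ac region in 43.0%.

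5hmC levels were somewhat higher at these sites. Regions higher after cocaine had a median of 11.1 normalised counts with cocaine and 3.23 with saline inside H3K27ac regions, and 8.91 and 2.23 outside. Regions lower after cocaine had 2.75 and 10.3 inside, and 2.07 and 8.82 outside, in cocaine and saline. The median log2 ratio was a little smaller inside, at 1.52 against 1.61 and at -1.54 against -1.68. The background had the same median inside and outside, 2.83 for the higher and 2.89 for the lower regions. At steps of about 1.43 normalised counts, equal medians cannot show that the background was equal.

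H3K27ac differences at these sites were small, and calls of both directions were found beside either direction of 5hmC. Of the 667 H3K27ac regions that overlapped a region with more 5hmC, limma called 59 (8.85%), 18 higher and 41 lower after cocaine. Of the 461 that overlapped a region with less 5hmC it called 47 (10.2%), 19 higher and 28 lower. Over the whole H3K27ac table limma called 13.0%, with 3.42% higher and 9.62% lower. The median limma log2 fold change was 0.012 at regions with more and 0.018 at regions with less 5hmC, against -0.018 over the table. These medians fall in a gap around 0 that holds few listed H3K27ac regions, so the split by sign describes them better: 50.4% were above 0 at sites with more 5hmC, 51.8% at sites with less and 47.4% over the table. Groups did not overlap in 23.7% and 29.5% of these H3K27ac regions, against 29.1% of the table. After cyclic loess scaling limma called 15.4% and 16.1%, against 15% of the table. Without H3K27ac cocaine library 1 it called 4.20% and 3.69%, against 6.20% of the table. Without cocaine library 2 it called 4.20% and 4.34%, against 6.15%, and without saline library 1 6.60% and 5.86%, against 9.88%. The other libraries left out in turn gave 7.65% and 9.33% against 11.5% (cocaine library 3), 8.55% and 10.6% against 13.9% (saline library 2), and 6.45% and 8.03% against 7.43% (saline library 3).

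As a sum per library, H3K27ac regions at sites with more 5hmC held 1.5139%, 1.5156% and 1.5090% of all listed H3K27ac counts in the cocaine libraries and 1.4989%, 1.5071% and 1.4884% in the saline libraries. At sites with less 5hmC they held 1.1245%, 1.1262% and 1.1220% in cocaine and 1.1142%, 1.1164% and 1.1079% in saline. Every cocaine library was above every saline library in both sets, by small amounts (exact permutation test, two-sided, p = 0.1 for each, the smallest that 3 against 3 libraries allow). The H3K27ac share was thus on the same side in both sets, whereas 5hmC differed in opposite directions. These shares are relative to listed H3K27ac regions, which were selected for a cocaine difference in the same libraries. Of all listed H3K27ac regions 9.62% were called lower and 3.42% higher, and calls at these sites were mostly lower too. A larger share therefore does not by itself mean more H3K27ac after cocaine.

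Of the 5hmC regions named above, 2 overlapped an H3K27ac region that limma called. At chr10:80616241-80616460, where 5hmC was higher after cocaine, the H3K27ac region from 80616301 to 80618800 held 736.65, 759.35 and 762.73 normalised counts in cocaine and 804.19, 863.47 and 836.53 in saline (limma log2 fold change -0.15 ± 0.0412, SE, adjusted p = 0.00580). The last region of the chromosome 15 group lay in an H3K27ac region from 74355801 to 74360400 with 2148.0 ± 43.3 normalised counts after cocaine and 2290.7 ± 47.6 after saline (SD, n = 3 each; limma log2 fold change -0.09 ± 0.0340, SE, adjusted p = 0.0489). In both, H3K27ac was lower where 5hmC was higher. The 4 other H3K27ac regions that overlapped a named site higher after cocaine had limma log2 fold changes from -0.06 to 0.03, none of which passed. The chromosome 18 site, lower after cocaine, partly overlapped one for which limma gave 0.08 ± 0.0501 on the log2 scale (SE, adjusted p = 0.306).

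**Figure D5:**
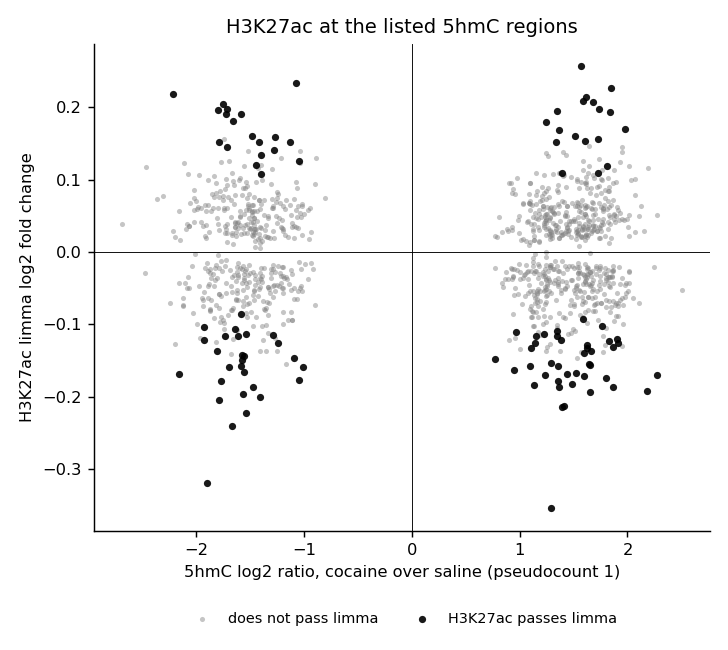
Limma log2 fold change of H3K27ac against the log2 ratio of 5hmC (pseudocount 1), cocaine over saline, for the 1135 overlapping pairs; black points are H3K27ac regions that passed limma. Points form a band above and a band below 0 on both sides, with a median limma log2 fold change of 0.012 at regions with more and 0.018 at regions with less 5hmC.

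Separate deposited lists hold enhancers with 5hmC specific to one treatment, as the authors' deposited names have it. They concern the same mark, so their overlap with the regions here is no independent evidence. The cocaine-specific list holds 10575 intervals, which overlapped 157 of the regions higher after cocaine (2.30%) and 22 of those lower (0.453%). The 22 go against the name of the list: their medians were 4.32, 3.70 and 3.59 normalised counts in cocaine and 10.8, 12.3 and 13.3 in saline. The saline-specific list, of 10555 intervals, overlapped 94 of the lower regions (1.93%) and 37 of the higher ones (0.541%), the 37 with medians of 13.4, 12.3 and 13.5 in cocaine and 4.48, 4.12 and 4.93 in saline. The group with more 5hmC had a median of 10.8 normalised counts at the 157 regions, 12.1 at the 22, 13.9 at the 37 and 9.49 at the 94, against 9.01 over all higher and 8.99 over all lower regions. An H3K27ac region was overlapped by 3 of the 157 (1.91%) and 1 of the 37 (2.70%), against 9.04% of all higher regions. Among lower regions, 0 of the 94 and 0 of the 22 overlapped one, against 8.89% of all. Listed H3K27ac regions had been selected for a cocaine difference, so a low overlap does not mean that H3K27ac was absent.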

How the data were processed

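Nucleus accumbens DNA was profiled by 5hmC capture in 3 cocaine and 3 saline libraries. The submitters' processing notes name Bowtie 0.12.9 and the build mm9. The sources used here do not give the caller behind the 5hmC table. The H3K27ac table came from diffReps 1.54, per the file headers. The authors deposited normalised counts per library in 1 cell per group, group means (signal), ratios over a background library, log2 fold changes and p-values with adjusted p-values. Each library's 5hmC values divided by its own step gave whole reads (100% within 0.1 read). The number of per-library columns left unused was 0.

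Groups follow the labels. Limma 3.58.1 in R 4.3.3 (trend, robust) was run on log2(value + 1) with Benjamini-Hochberg adjustment over each whole table. A check on simulated counts used features that were mostly unchanged, so it cannot show how limma behaves on selected lists such as these. Tables were handled with pandas 2.3.3 and numpy 2.4.6 in Python 3.11.15, exact tests with scipy 1.17.1 and plots with matplotlib 3.10.9. Overlap meant at least 1 bp. Any p-value here reflects how these libraries vary, and that variation may be technical. Named regions are those with a deposited adjusted p below 0.05, the 3 highest levels and the longest region per direction, and the largest group within 10000 bp. They also include the 5 largest ratios per direction with a group mean of at least 10 and no overlap between cocaine and saline values. Those near the threshold, with overlapping groups or at 0 were added after their values were seen. The regions and lists were chosen with earlier results of these data known. Gene lists were not used, since the given gene table is not in mm9.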

Additional observations from a re-analysis of the deposited data

How the results depend on the processing

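No paired analysis was possible because the library names share no number between the groups and the 5hmC values carry no names. Leaving out 1 library kept the share of regions higher after cocaine at 58.5%. Selection on these same libraries largely fixed this share, the limma counts and the log2 ratios below, so they are no test of robustness. The share was 42.9% at a deposited adjusted p below 0.1 (7 regions) and 60.5% at a group mean of at least 10. The limma count was 11693 to 11698 with 1 library left out, and 4767 at a group mean of at least 10, where only 4767 were tested. The median log2 ratios of 1.61 and -1.67 were 1.33 and -1.39 with a pseudocount of 2, and -1.85 for lower regions with 0.5; with 1 library left out they ranged from 1.55 to 1.59 and from -1.66 to -1.64. The share with a neighbour, 18.5%, was 10.3% within 5000 bp, 57.7% within 50000 bp and 10.7% at a group mean of at least 10. Overlap with H3K27ac, 8.98%, was 8.13% with at least 50% of the region covered, 15.9% within 1000 bp and 12% at a group mean of at least 10.

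The percentage of H3K27ac regions passing limma, 8.85% at higher and 10.2% at lower 5hmC regions, was 15.4% and 16.1% after cyclic loess, and 4.20% to 8.55% and 3.69% to 10.6% with 1 library left out; the cause was not tested. Over the whole H3K27ac table the percentage went from 13.0% to 15% after cyclic loess and to between 6.15% and 13.9% with 1 library left out. Their medians of 0.012 and 0.018 were 0.017 for higher regions with at least 50% covered, -0.007 and -0.015 within 1000 bp, and 0.000 to 0.006 and 0.002 to 0.010 with 1 library left out. The H3K27ac share difference, 0.0146 and 0.0114 percentage points, stayed positive, 0.0098 to 0.0191 and 0.0090 to 0.0132 with 1 library left out. Median ratios over background, counting regions with a background of 0 as infinite, were 4.02 in cocaine and 0.970 in saline at higher regions, and 0.900 and 3.69 at lower regions. Without those regions they were 3.31, 0.830, 0.730 and 3.02, and at a group mean of at least 10 they were 4.84, 1.79, 1.55 and 4.43. The count test on recovered reads was not run, because the values share cells, and the gene list result was not run for want of an mm9 annotation. Depth, a median of 5 to 7 reads per region and library, limits every single region.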
